A study of Mus musculus with 16 samples.

Results

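The enzymes that make, use and break down ceramide were followed in mouse liver across diet and feeding state. Members were the rows of the count table whose Ensembl gene ID maps to one of 10 symbols, Sptlc1, Sptlc2, Degs1, Cers2, Cers4, Cers5, Cers6, Smpd1, Sgms1 and Asah1, and all 10 were found among 46078 genes and passed the filter on low counts that left 15075 genes. RNA-seq of polyadenylated RNA was made from the livers of male mice of a strain given in the labels as C56B6/J, which entered the diets at 8 weeks of age. The 4 groups were control diet fed (CD fed), control diet with a 16 h fast (CD fast), high-fat diet fed (HFD fed) and high-fat diet with a 16 h fast (HFD fast), each after 16 weeks on diet and each with 4 libraries. The high-fat diet drew 60% of its calories from fat and is used to induce obesity, and no group carried a transgene or a drug. The labels do not say how litters or cages were spread over the groups, so p-values measure the spread between these libraries.

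Ceramide is the hub of sphingolipid metabolism. Serine palmitoyltransferase condenses serine with palmitoyl-CoA in the endoplasmic reticulum, ceramide synthases then attach a fatty acid whose chain length depends on the synthase, and dihydroceramide desaturase completes the molecule. Ceramide also arises when sphingomyelinases cleave sphingomyelin, and it is removed by sphingomyelin synthases or by ceramidases. In liver, very-long-chain ceramides are made mainly by CERS2 and C16 ceramides mainly by CERS5 and CERS6, and C16 ceramides are known for their link to insulin resistance and steatosis.

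The members called in at least 1 pairwise comparison were Cers6, Cers2 and Sgms1, and the stretch upstream of the first RefSeq start of each is shown to locate the motif matches given next. For Cers6 it abuts the annotated start of the gene, whereas for Cers2 and Sgms1 it lies inside the span of the gene in GENCODE, which begins further upstream. Sequences are RefSeq promoter sequence of GRCm38.p6, read 5′ to 3′ on the strand of the gene and cut where an annotated exon of the gene itself begins. Capitals mark matches to 6 motifs searched on both strands.
Cers6, chr2:68861191-68861440, plus strand: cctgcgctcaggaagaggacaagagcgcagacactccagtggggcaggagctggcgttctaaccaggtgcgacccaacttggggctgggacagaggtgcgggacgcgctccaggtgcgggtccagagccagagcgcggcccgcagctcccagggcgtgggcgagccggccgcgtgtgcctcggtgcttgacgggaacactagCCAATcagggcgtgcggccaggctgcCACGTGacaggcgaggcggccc
Cers2, chr3:95314940-95315083, plus strand: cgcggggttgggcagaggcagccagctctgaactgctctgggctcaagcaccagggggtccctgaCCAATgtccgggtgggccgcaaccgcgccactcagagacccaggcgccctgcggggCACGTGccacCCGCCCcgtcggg
Sgms1, chr19:32388513-32388762, minus strand: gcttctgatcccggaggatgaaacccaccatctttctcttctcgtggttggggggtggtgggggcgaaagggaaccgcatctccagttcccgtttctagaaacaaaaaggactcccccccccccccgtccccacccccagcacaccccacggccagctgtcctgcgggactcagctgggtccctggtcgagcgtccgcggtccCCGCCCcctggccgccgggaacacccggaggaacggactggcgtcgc
The E-box letters CACGTG occurred at positions -22 to -17 from the RefSeq start of Cers6 and at -129 to -124 from that of Cers2, and in 6.02% of the 32851 upstream windows of 250 bases in the RefSeq table. Among the 9 members with a promoter entry the E-box letters were also found upstream of Degs1, at -43 to -38, a gene with no call in any comparison. The CCAAT box, present upstream of Cers6 and Cers2, was in 33.8% of all windows. The GC box, spelled GGGCGG and present upstream of Cers2 and Sgms1, was in 32.7%. The FOXO site, spelled GTAAACA, was in 3.17% of windows and in none of the 13 windows of members. The sterol element, spelled TCACNCCAC, was in 1.05% of windows and likewise in none of the members'. The half-site of nuclear receptors such as PPARs, spelled AGGTCA, was in 14.0% of windows and had no match in the printed stretches, but was found in other windows of members, upstream of the second start of Cers2 at -197 to -192, of Smpd1 at -150 to -145 and of the second and the third start of Sgms1 at -90 to -85 and -38 to -33. None of the marked matches overlap each other. Asah1 had no entry.

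Library totals ranged from 41364448 to 57583153 counts. Levels are given as CPM, the count relative to a library total scaled by TMM, which balances most genes between libraries. Adjusted p-values of single genes are from edgeR's quasi-likelihood test with Benjamini-Hochberg adjustment over all 15075 genes, with a threshold of 0.05, and changes are log2 fold changes with their standard errors. The livers carried the hepatocyte markers Alb, Apoa1, Cps1 and 2 others at a summed level of at least 68500 CPM in every library, whereas the summed lymphocyte markers did not exceed 5.29 CPM. A set of 3 HFD libraries stood apart in single markers of other cells. HFD fed replicate 4 had 529 counts of Krt19, a bile duct keratin, against at most 45 in any other library, and 76 of Ctrb1, a pancreatic protease, against at most 8. Col1a1, the collagen of activated stellate cells, had 1066 counts there and 1210 in HFD fast replicate 4, against at most 372 elsewhere. HFD fast replicate 1 had 45 counts of Adipoq and 36 of Lep, both adipocyte genes, against at most 24 and 2. Summed marker lists were mixed. Cholangiocyte sums reached 39.3 CPM in HFD fed but 62.3 CPM in CD fast livers. Adipocyte sums reached 174 CPM in HFD fast but 264 CPM in CD fast livers. Stellate cell sums reached 271 CPM in HFD fed and 280 CPM in HFD fast livers, against at most 208 CPM on CD. Pancreas sums reached 1.84 CPM in HFD fed livers, against at most 0.495 CPM elsewhere. The 3 libraries were also left out together, an omission chosen after seeing the data, and the calls that this ended are given. In whole tissue, fewer cells of a type and less RNA per cell cannot be told apart.

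Per kilobase of annotated exon the 10 enzymes spanned from 0.285 to 69.5 CPM per kb as means over the 16 libraries. Cers2, the synthase of very-long-chain ceramides, stood first at 69.5 ± 12.3 CPM per kb (SD, n = 16 libraries across the 4 groups). It was followed by Degs1, the desaturase that converts dihydroceramide into ceramide, at 27.1 ± 3.46, and by Smpd1, the lysosomal acid sphingomyelinase, at 13.8 ± 1.13. Asah1, the acid ceramidase, had 8.32 ± 1.06 and Sptlc1, a subunit of serine palmitoyltransferase, 6.92 ± 0.787 CPM per kb. This order held in all 16 libraries except between Asah1 and Sptlc1, where Asah1 was the higher in 14. Cers6 (2.49 ± 1.11) and Sptlc2 (2.23 ± 0.196), the catalytic partner of Sptlc1, had no common order, since Cers6 was the higher in only 10 of 16 libraries. Their order differed by group. Cers6 was the lower in every CD fed library (mean 1.18 against 2.3) and the higher in every HFD fast library (mean 2.93 against 2.29). In CD fast and HFD fed livers the order varied between libraries. Sgms1, a sphingomyelin synthase of the Golgi, was at 1.37 ± 0.352, Cers5 at 0.692 ± 0.115 and Cers4 at 0.285 ± 0.0311 CPM per kb, and these neighbours kept their order in every library. The order of Cers5 and Cers4 depended on the annotated exon length, 3.54 and 12.26 kb. In CPM without length Cers4 had the higher mean, 3.49 against 2.45. Annotated exons need not match the transcripts expressed.

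**Figure D1:**
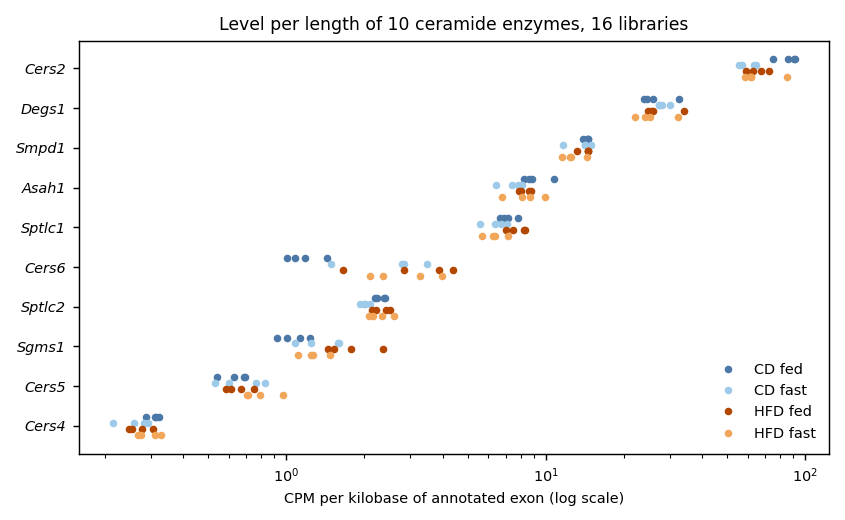
Level of each enzyme in CPM per kilobase of annotated exon on a log scale, 1 point per library, coloured by group. Cers2 lies highest in every library, and Cers6 is the member whose groups are most spread, with the CD fed libraries lowest.

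Cers6 had the largest coefficient of variation across all libraries among the members, and its variation followed the groups. The gene (ENSMUSG00000027035, chr2:68861441-69114282, plus strand, GRCm38) is protein-coding, as are all 10 members. In CD fed livers Cers6 was at 8.99, 9.55, 10.5 and 12.7 CPM. After fasting on CD it was at 13.2, 25.1, 24.7 and 30.9 CPM. In HFD fed livers it was at 25.3, 14.8, 39.0 and 34.5 CPM, and in HFD fast livers at 18.7, 29.1, 21.0 and 35.2 CPM. The CD fed libraries were thus the lowest 4 of 16 and overlapped with no other group, while the other groups overlapped with each other and each had a coefficient of variation of 29.3% to 37.8%, against 15.8% in CD fed livers. One CD fast library (13.2 CPM) and one HFD fed library (14.8 CPM) lay near the top of the CD fed range.

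Cers2 (ENSMUSG00000015714, chr3:95314791-95323599, plus strand) showed the opposite placement of the CD fed group. It was at 277, 332, 336 and 314 CPM in CD fed livers, and at 233, 203, 237 and 209 CPM after fasting on CD. In HFD fed livers it was at 267, 231, 248 and 218 CPM, and in HFD fast livers at 216, 313, 227 and 226 CPM. All CD fed libraries lay above all CD fast and HFD fed libraries, and one HFD fast library (313 CPM) stood within the CD fed range while the other 3 did not. Cers2 exons overlap those of Setdb1, a histone methyltransferase gene on the opposite strand, and the strand setting of the counting is not given in the sources used here. Setdb1 had 23614 counts summed over all 16 libraries, whereas Cers2 had a mean of 12448 in each library and so was far more abundant. The log2 fold change of Setdb1 was -0.13 with fasting on CD (adjusted p = 0.2) and -0.08 with HFD in fed mice (adjusted p = 0.56).

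Sgms1 (ENSMUSG00000040451, chr19:32122727-32389714, minus strand) moves phosphocholine onto ceramide and so turns it into sphingomyelin. It was at 9.70, 13.0, 12 and 10.7 CPM in CD fed livers. It was at 11.4, 16.8, 16.7 and 13.1 CPM in CD fast livers. In HFD fed livers it reached 18.7, 15.3, 24.8 and 16.1 CPM, and in HFD fast livers it was at 13.4, 13.2, 15.5 and 11.7 CPM. All HFD fed libraries exceeded all CD fed libraries, whereas the fasted groups overlapped with both. An exon of Sgms1 overlaps the opposite-strand transcript 2700046G09Rik. That transcript had 1040 counts summed over all 16 libraries, whereas Sgms1 had a mean of 691 in each library and so was far more abundant.

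**Figure D2:**
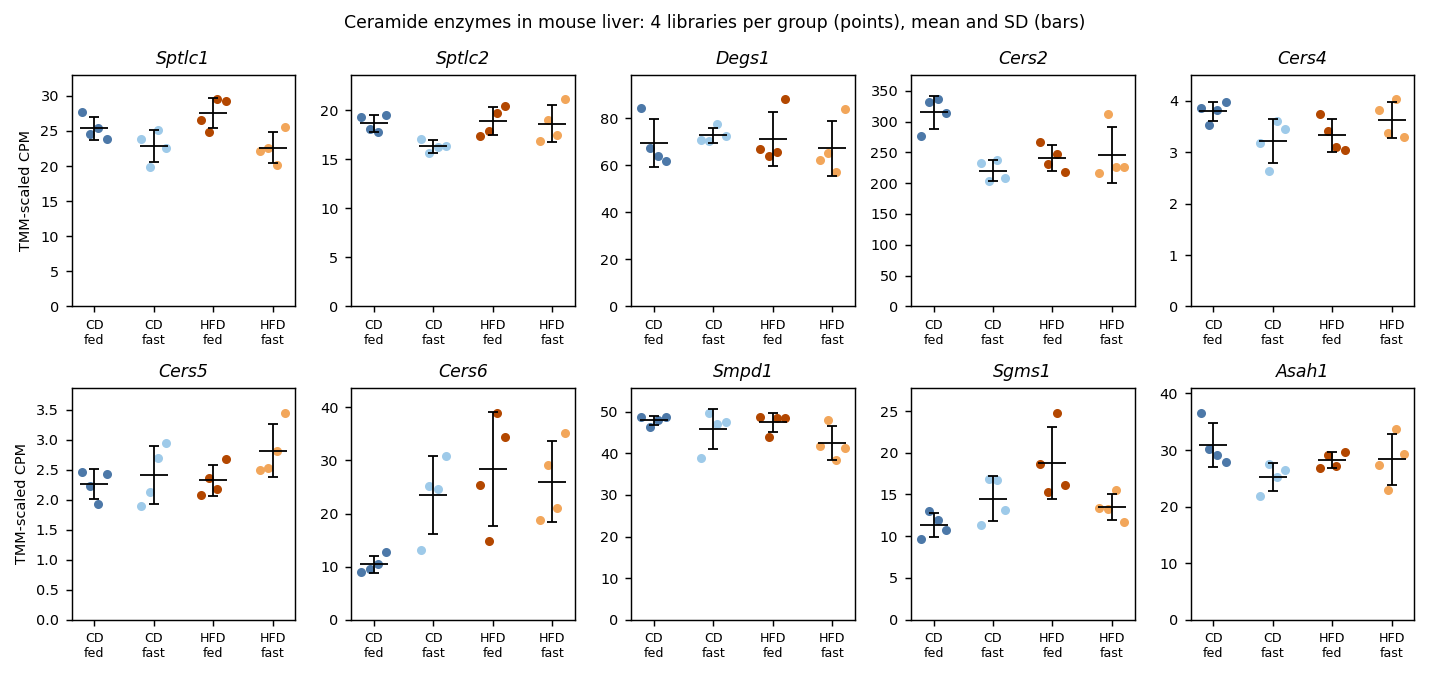
TMM-scaled CPM of each enzyme in the 4 groups, 1 point per library, with the group mean and SD (n = 4) as bars and every axis starting at 0. Cers6 is lowest and Cers2 highest in CD fed livers, Sgms1 is highest in HFD fed livers, and Degs1, Smpd1, Cers4 and Cers5 lie in overlapping ranges.

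The first comparison asked how the 10 enzymes responded to fasting on the control diet. Cers6 rose 2.25-fold and Cers2 fell to 0.7 of its fed level, and the other 8 enzymes did not pass the test. The log2 fold change of Cers6 was 1.17 (SE 0.29, adjusted p = 0.00938) and that of Cers2 was -0.51 (SE 0.11, adjusted p = 0.0047). These 2 of 10 calls stand beside 25.2% of all tested genes called in the same comparison, so that the share of members called was close to the background. At an unadjusted p under 0.05 there were 5 of 10 members, beside 37.6% of all genes, and DESeq2 called 2 of 10, beside 28.3%. The fed and fasted libraries did not overlap for 4 of 10 members, against 25.4% of all genes. Besides Cers6 and Cers2 these were Sptlc2 and Asah1. Sptlc2 was at 19.3, 18.1, 17.8 and 19.5 CPM in fed and 17.1, 15.6, 16.2 and 16.3 CPM in fasted livers, with a log2 fold change of -0.19 (SE 0.08, adjusted p = 0.0775). Asah1, which hydrolyses ceramide to sphingosine in lysosomes, was at 36.6, 30.1, 29.2 and 27.9 CPM fed and 21.8, 27.5, 25.2 and 26.5 CPM fasted, with a log2 fold change of -0.29 (SE 0.11, adjusted p = 0.0652). Asah1 passed the threshold without HFD fast replicate 2 (adjusted p = 0.0385) or replicate 3 (adjusted p = 0.0483), neither of which belongs to the groups compared.

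The remaining members did not pass the test with fasting on CD, and their fed and fasted libraries overlapped. Sptlc1 had a log2 fold change of -0.15 (95% confidence interval -0.34 to 0.04) and Sgms1 of 0.36 (0.02 to 0.69, adjusted p = 0.114). The intervals of Degs1 (-0.21 to 0.34) and Smpd1 (-0.24 to 0.1) bound any change of these relatively abundant enzymes, while Cers4 (-0.49 to 0.02) and Cers5 (-0.25 to 0.44) rested on 103 to 222 and 80 to 137 counts per CD library. The median log2 fold change over the 10 members was -0.11, beside -0.01 over all genes.

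Markers of other liver cells moved in the same comparison. The 5 Kupffer cell markers summed to 209 to 357 CPM in CD fed and 139 to 216 CPM in CD fast livers, with 2 of 5 called lower. The 5 sinusoidal endothelial markers summed to 198 to 223 and 147 to 194 CPM, again with 2 of 5 called lower, and 1 of 5 stellate cell markers was lower. Of the hepatocyte markers 1 of 5 was called lower, with sums of 102000 to 134000 CPM fed and 83600 to 107000 CPM fasted, and of the erythrocyte markers 1 of 4, Alas2, was lower. The 5 cholangiocyte markers summed to 26 to 31 CPM fed and 29.7 to 62.3 CPM fasted, with none called. The 5 lymphocyte markers summed to 1.44 to 5.29 and 1.83 to 4.46 CPM, also with none called. The 1 pancreas marker tested was called lower. In the list of adipocyte genes the 1 tested, Cidec, a lipid droplet gene, was called higher. Adipoq did not exceed 0.976 CPM in any library. The part of these cells in the changes of Cers2 and Cers6 was not tested.

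The same question on the high-fat diet gave a different list of values. No member passed the test for fasting in HFD in edgeR, while 8.86% of all genes were called. At an unadjusted p under 0.05 there were 2 of 10 members, beside 25.6% of all genes, and DESeq2 called 2 of 10, beside 13.9% of all genes. Cers6 had a log2 fold change of -0.13 (95% confidence interval -0.74 to 0.48, adjusted p = 0.819) and Cers2 of 0.03 (-0.22 to 0.27, adjusted p = 0.904). Fed and fasted HFD libraries overlapped for all 10 members, whereas they did not for 16.7% of all genes. Of the marker lists, 1 of 5 hepatocyte markers, Hnf4a, and 1 of 4 erythrocyte markers, Alas2, were called lower with fasting in HFD, and Cidec of the adipocyte list was called higher, at 8.41 to 63.3 CPM fed and 97.7 to 174 CPM fasted. The members nearest the threshold were Sptlc1 and Sgms1. Sptlc1 was at 26.6, 24.9, 29.5 and 29.2 CPM in HFD fed and 22.2, 22.6, 20.1 and 25.5 CPM in HFD fast livers (log2 fold change -0.29, SE 0.09, adjusted p = 0.0587), and the fasted library at 25.5 CPM lay inside the fed range. Without that library, HFD fast replicate 4, Sptlc1 passed the threshold (log2 fold change -0.35, adjusted p = 0.0333), as it did without CD fast replicate 2 (adjusted p = 0.0399). Sgms1 had a log2 fold change of -0.48 (SE 0.16, adjusted p = 0.0712), and in edgeR with a replicate block it was called (-0.47, adjusted p = 0.0326). With the 3 HFD libraries that stood apart left out, Sptlc1 was at -0.35 (adjusted p = 0.123) and no member was called. Sptlc1 and Sgms1 were the genes that DESeq2 called, with adjusted p of 0.0264 for Sptlc1 and 0.036 for Sgms1.

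The third comparison asked what the high-fat diet changed in fed livers. Cers6 was 2.72-fold and Sgms1 1.65-fold higher on HFD than on CD. The log2 fold changes were 1.44 (SE 0.29, adjusted p = 0.00887) and 0.72 (SE 0.16, adjusted p = 0.013), and these 2 of 10 calls stand beside 7.50% of all genes called. At an unadjusted p under 0.05 there were 3 of 10 members, beside 22.9% of all genes. Cers2 had a log2 fold change of -0.39 (SE 0.11) that fell short of the threshold (adjusted p = 0.0521), although its groups did not overlap. It passed without HFD fast replicate 2 (adjusted p = 0.0154), the library in which it was at 313 CPM, and without CD fed replicate 1 (adjusted p = 0.0486). DESeq2, which called 11.7% of all genes, called Cers2 as well (adjusted p = 0.0171), and 4 of 10 other settings did in all. Without HFD fed replicate 4, the library high in Krt19, Ctrb1 and Col1a1, the log2 fold change was 1.33 for Cers6 (adjusted p = 0.0228), 0.79 for Sgms1 (adjusted p = 0.0156), -0.34 for Cers2 (adjusted p = 0.121) and -0.08 for Degs1 (adjusted p = 0.746). With all 3 libraries that stood apart left out, Cers6 was at 1.34 (adjusted p = 0.022), Sgms1 at 0.80 (adjusted p = 0.0175) and Cers2 at -0.33 (adjusted p = 0.111). In all, 3 of 10 members had groups without overlap, against 15.7% of all genes. The other members were within 0.2 of 0 on the log2 scale, from -0.19 for Cers4 to 0.12 for Sptlc1, and the intervals were -0.24 to 0.31 for Degs1 and -0.19 to 0.16 for Smpd1. Kupffer cell markers summed to 216 to 304 CPM in HFD fed livers and sinusoidal endothelial markers to 186 to 204 CPM, ranges that overlapped those of CD fed livers. The comparison shares the CD fed libraries with that of fasting on CD, so the values of Cers6 and Cers2 in the pair are not independent.

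Between fasted livers of both diets the enzymes were close. In HFD fast against CD fast livers edgeR called 0 of 10 members, while 7.70% of all genes were called. At an unadjusted p under 0.05 there was 1 member, beside 25.9% of all genes, and DESeq2 called 0, beside 13.1%. None of the 10 had groups without overlap, beside 14.0% of all genes. Sptlc2 had the lowest p, with 16.9, 19.0, 17.5 and 21.1 CPM in HFD fast livers and a log2 fold change of 0.19 (SE 0.08, adjusted p = 0.133). Scaling by total counts instead, which shifts the median of all genes in this comparison by 0.16, gave Sptlc2 a log2 fold change of 0.35 and an adjusted p of 0.0258. Cers6 differed by 0.15 (95% confidence interval -0.46 to 0.76), Cers2 by 0.16 (-0.09 to 0.4) and Sgms1 by -0.11 (-0.45 to 0.23).

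**Figure D3:**
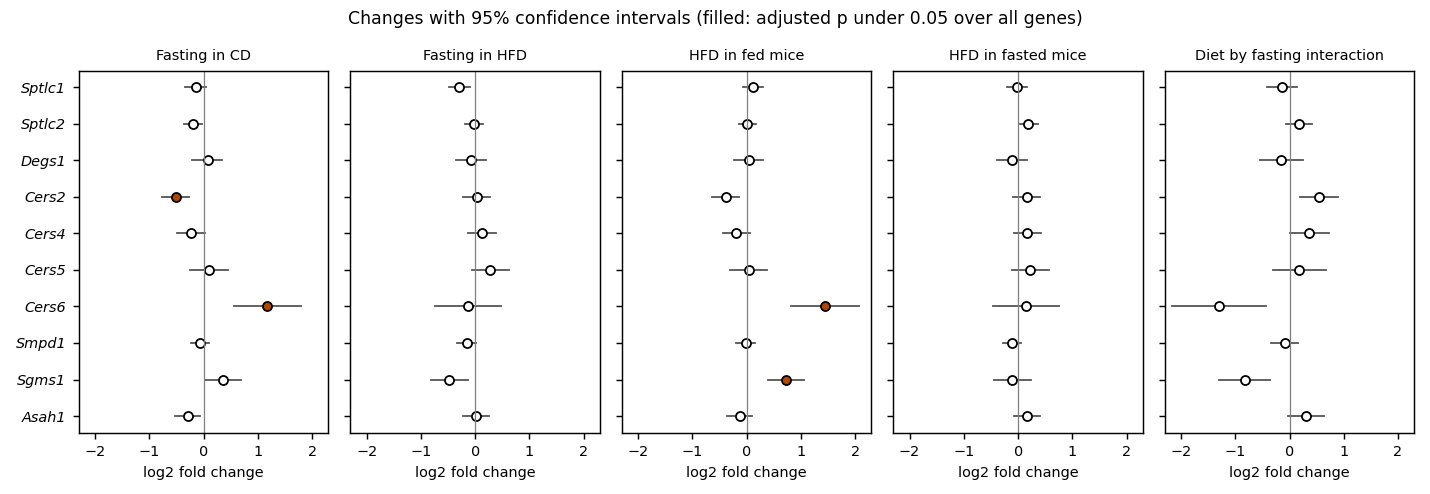
Log2 fold change of each enzyme (points) with its 95% confidence interval (lines) in 4 pairwise comparisons and in the interaction (the change in HFD on fasting less the change in CD). Filled points passed an adjusted p of 0.05 over all genes, and these are Cers6 and Cers2 with fasting in CD, and Cers6 and Sgms1 with HFD in fed mice.

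Whether fasting acted differently on the 2 diets was tested by the interaction. No member passed it in edgeR, where 2.59% of all genes were called. At an unadjusted p under 0.05 there were 4 of 10 members, beside 20.2% of all genes, and DESeq2 called 3 of 10, beside 8.01% of all genes. The difference in fasting change was -0.83 for Sgms1 (SE 0.22, adjusted p = 0.0582), 0.54 for Cers2 (SE 0.16, adjusted p = 0.0847) and -1.30 for Cers6 (SE 0.41, adjusted p = 0.1). The fourth was Cers4, at 0.36 (SE 0.17, adjusted p = 0.244). DESeq2 called Sgms1 (adjusted p = 0.0121), Cers6 (0.0261) and Cers2 (0.0282). In edgeR a replicate block gave a call of Sgms1 (-0.82, adjusted p = 0.0333). Total count scaling gave one of Cers2 (0.63, adjusted p = 0.037). Without CD fast replicate 1, the fasted library with the lowest Cers6, edgeR called Cers6 (-1.49, adjusted p = 0.0464) and Sgms1 (-0.94, adjusted p = 0.0354), and Cers6 was also called without HFD fed replicate 2 (-1.51, adjusted p = 0.0499). In simulated counts edgeR recovered 18% of interactions of 1.5-fold and 95% of those of 3-fold size among 14977 genes. Of the calls in these simulated interactions 17.1% were false in DESeq2, against 4.24% in edgeR. The counts were drawn with dispersions estimated by edgeR and with 100 changed genes of each size, in otherwise equal groups. These false shares may therefore not carry over to the data.

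The balance between synthases was followed within each library as the log2 of the Cers6 count over the Cers2 count, in which library size cancels. It was -4.95, -5.12, -5.01 and -4.62 in CD fed livers and -4.14, -3.02, -3.26 and -2.75 in CD fast livers. On HFD it was -3.40, -3.97, -2.67 and -2.66 fed and -3.53, -3.43, -3.43 and -2.68 fasted. Every CD fed library therefore had a lower ratio than every other library. The mean was higher by 1.63 after fasting in CD and by 1.75 on HFD in fed mice. Each difference had p = 0.0286 in a two-sided exact permutation test, which is as low as a design of 4 against 4 can reach. The adjusted p was 0.0857 over the 12 ratio tests made, so neither passed the threshold. Passing would have needed most of the 12 tests at the lowest possible p, so the adjusted test could hardly decide. It differed by -0.10 with fasting in HFD (exact permutation p = 0.686) and by 0.02 with HFD in fasted mice (exact permutation p = 0.943). Whether the ratio's fasting change differed between diets was not tested.

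**Figure D4:**
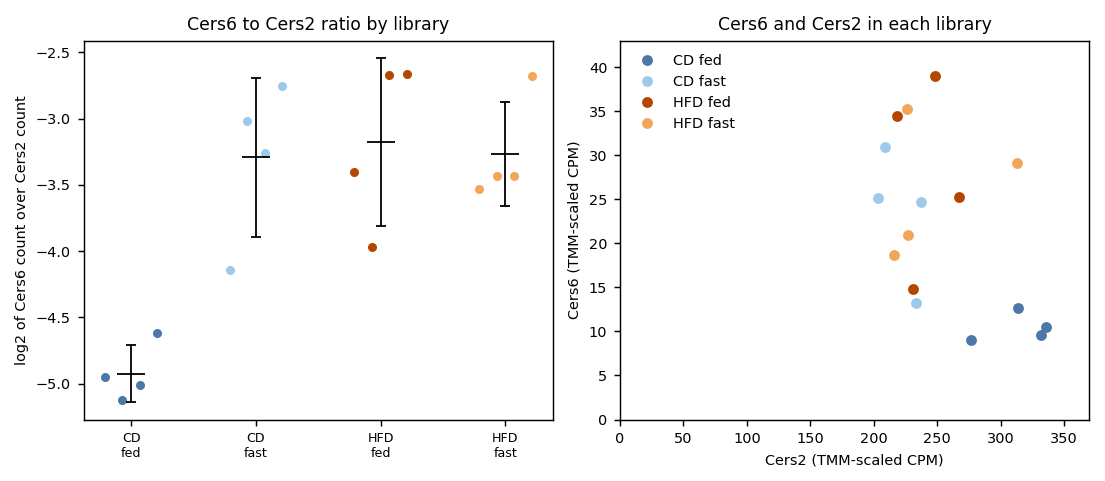
Left, log2 of the Cers6 count over the Cers2 count in each library with group mean and SD (n = 4); right, Cers6 against Cers2 in TMM-scaled CPM, 1 point per library. The CD fed libraries sit between -5.12 and -4.62 on the left, under all others, and at the lower right of the right panel.

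Expressed per length, the shift concerned a minor synthase. Of the summed CPM per kb of the 6 ceramide synthase genes, Cers2 made up 97.6% ± 0.317 in CD fed livers and 94.3% ± 1.67 in CD fast livers (SD, n = 4). On HFD it made up 94.1% ± 1.77 fed and 94.3% ± 1.4 fasted. The share of Cers6 was 1.34% ± 0.203 in CD fed livers, against 4.20% ± 1.45 when fasted on CD, 4.59% ± 1.75 when fed HFD and 4.15% ± 1.2 when fasted on HFD. These shares rest on annotated exon lengths, 8.88 kb for Cers6 and 3.68 kb for Cers2. Without length the Cers6 count was 0.0288 to 0.0406 of the Cers2 count in CD fed libraries. In HFD fed libraries it was 0.0638 to 0.158 of that count. Cers1, the synthase of muscle and brain, and Cers3, that of skin and testis, were at no more than 3 and 4 counts in any library.

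The ratio of the serine palmitoyltransferase subunits, Sptlc2 over Sptlc1, had a log2 mean of -0.44 ± 0.11 in the fed and -0.48 ± 0.11 in the fasted state on CD (SD, n = 4). On HFD it was -0.55 ± 0.06 fed and -0.28 ± 0.08 fasted. The difference between the HFD groups was 0.27 (exact permutation p = 0.0286, adjusted 0.0857) and that between the CD groups -0.04 (exact permutation p = 0.629). Smpd1 frees ceramide from sphingomyelin, and Sgms1 is an enzyme that makes sphingomyelin. The ratio of Smpd1 over Sgms1 was at 1.37 ± 0.28 on the log2 scale in HFD fed livers against 2.09 ± 0.22 for CD fed (exact permutation p = 0.0286, adjusted 0.0857). It was at 1.67 ± 0.17 in CD fast and 1.66 ± 0.25 in HFD fast livers. Counts of Smpd1 itself were within 44.0 to 48.8 CPM in both fed groups. Sgms2, another sphingomyelin synthase, was more abundant than Sgms1. Its mean was 49.9 CPM in CD fed and 42.6 CPM in HFD fed livers, against 11.3 and 18.7 CPM for Sgms1. With HFD in fed mice Sgms2 had a log2 fold change of -0.23 (SE 0.10, edgeR adjusted p = 0.19). The ratio therefore does not describe sphingomyelin synthases as a whole.

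Across the 16 libraries the members varied together in different ways, given as descriptions because the libraries share groups and depth. Sptlc1 and Sptlc2, whose products form one complex, had a Pearson r of 0.612 over log2 CPM and 0.664 after subtraction of group means. Sptlc1 and Degs1 had 0.511 and 0.726. Cers6 and Sgms1 had 0.625 and 0.353, so that part of their likeness lay between groups. Cers2 and Cers6 had -0.562 over all libraries and 0.061 within groups. Cers2 and Asah1 had 0.0585 and -0.782, and Cers6 and Smpd1 had 0.0771 and 0.677.

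The genes whose log2 CPM was most like that of Cers6 were Manea, an endomannosidase of the Golgi (Pearson r = 0.938 over 16 libraries), Unc5b, a netrin receptor (0.915), and Dop1b (0.886). These genes were chosen on the same libraries, so their changes are given as descriptions only. Unc5b had log2 fold changes of 1.03 with fasting in CD and 1.76 with HFD in fed mice, and Manea of 0.32 and 0.38. Those most like Cers2 were Sucnr1, the succinate receptor (0.94), Gstm2, a glutathione transferase (0.94), and Pm20d1, which makes N-acyl amino acids (0.922). Sucnr1 had log2 fold changes of -1.35 with fasting in CD (SE 0.29) and -1.19 with HFD in fed mice (SE 0.29).

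The other genes of the pathway were taken from a list of 46, of which 38 passed the filter. With fasting in CD 7 of these 38 were called higher and 4 lower, beside 25.2% of all genes called. The median log2 fold change of the list was 0, and -0.01 over all genes. In the first steps of synthesis Kdsr, the reductase after serine palmitoyltransferase, rose (0.29, SE 0.09, adjusted p = 0.0324) and Ormdl2, an inhibitory partner of that enzyme, fell (-0.28, SE 0.10, adjusted p = 0.0414). Sptlc3, an alternative catalytic subunit, was also called higher (adjusted p = 0.0404), but from 0, 0, 0 and 1 counts in CD fed and 11, 6, 2 and 8 counts in CD fast livers. Elovl1, which elongates the fatty acids that CERS2 uses, fell by 0.28 (SE 0.10, adjusted p = 0.0451). Cptp, a ceramide 1-phosphate transfer protein, rose by 0.51 (SE 0.09, adjusted p = 0.000792), and Samd8, which makes the ethanolamine analogue of sphingomyelin, fell by 0.37 (SE 0.11, adjusted p = 0.0204).

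Aldh3a2, the fatty aldehyde dehydrogenase that clears the aldehyde released from sphingosine 1-phosphate, was at 383, 436, 529 and 443 CPM in CD fed and at 1680, 1290, 1310 and 1190 CPM in CD fast livers, a 3.06-fold rise (log2 fold change 1.61, SE 0.16, adjusted p = 1.29e-05). It was also 2-fold higher on HFD in the fed state (adjusted p = 0.00187) and rose 1.74-fold with fasting in HFD (adjusted p = 0.00761), from 782 to 1110 CPM in fed to 1250 to 1840 CPM in fasted livers. Its groups did not overlap in any of the 3. Sgpl1, the lyase that produces that aldehyde, went the other way, with 69.2 to 91.3 CPM in CD fed, 48.2 to 66.0 in CD fast and 48.6 to 62.7 CPM in HFD fed livers. Its log2 fold change was -0.41 with fasting in CD (SE 0.12, adjusted p = 0.0253) and -0.52 with HFD in fed mice (SE 0.12, adjusted p = 0.0211). The latter call was kept in 13 of 16 omissions of a library and ended with the 3 HFD libraries that stood apart left out (-0.48, adjusted p = 0.0545). Psap, the precursor of the saposins that activate lysosomal sphingolipid hydrolases, rose by 0.67 with fasting in CD (SE 0.09, adjusted p = 0.00013) and by 0.45 with fasting in HFD (SE 0.09, adjusted p = 0.00875).

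**Figure D5:**
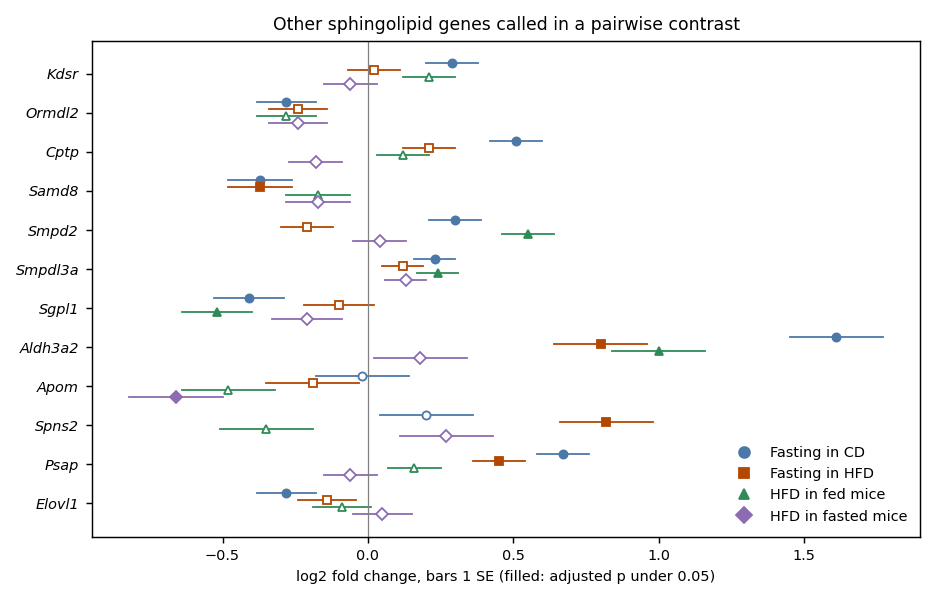
Log2 fold changes with 1 SE of the 12 other pathway genes called in at least 1 pairwise comparison and measured above 10 CPM, 1 symbol per comparison, filled where the adjusted p is under 0.05. Of the genes plotted Aldh3a2 rises most with fasting in CD and with HFD in fed mice, Spns2 (0.82) and Aldh3a2 (0.80) are close with fasting in HFD, Sgpl1 lies below 0 in all 4 comparisons, and Smpd2 rises with HFD in fed mice.

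Among the listed sphingomyelinase genes and their relatives other than Smpd1, 2 of the 6 tested were called higher with HFD in the fed state and 0 lower. This stands beside 7.50% of all genes called in either direction. Smpd2, a neutral sphingomyelinase, was at 19.9 to 23.7 CPM in CD fed livers and at 27.7 to 33.7 CPM with HFD (log2 fold change 0.55, SE 0.09, adjusted p = 0.00224). Its rise with fasting in CD was smaller (0.30, SE 0.09, adjusted p = 0.0239). With fasting in HFD its log2 fold change was -0.21 (adjusted p = 0.151), and the interaction was the only one called in the list, 1 of 38 beside 2.59% of all genes (-0.51, SE 0.13, adjusted p = 0.0435). That call was kept in 5 of 16 omissions of a library, and its highest adjusted p was 0.0946, without HFD fed replicate 3. It ended with the 3 HFD libraries that stood apart left out (-0.51, adjusted p = 0.0665). Smpdl3a, related to acid sphingomyelinase, rose by 0.24 with HFD in fed mice (SE 0.07, adjusted p = 0.0481) and by 0.23 with fasting in CD (SE 0.07, adjusted p = 0.0226). The former call ended without HFD fed replicate 4 (0.23, adjusted p = 0.0946) and without all 3 such libraries (0.24, adjusted p = 0.0917), with log2 fold changes close to that with all libraries. In all, HFD in fed mice called 3 of 38 genes higher and 1 lower, beside 7.50% of all genes, and fasting in HFD 3 higher and 1 lower, beside 8.86%. In the latter, Spns2, an exporter of sphingosine 1-phosphate, rose by 0.82 (SE 0.16, adjusted p = 0.00648) and Samd8 fell by 0.37 (SE 0.11, adjusted p = 0.0446), a call that ended without the 3 libraries (-0.44, adjusted p = 0.11). Between fasted livers 1 of 38 was higher and 1 lower in HFD, beside 7.70% of all genes. Apom, which carries sphingosine 1-phosphate on lipoproteins, was at 161 to 212 CPM in CD fast and 104 to 149 CPM in HFD fast livers (log2 fold change -0.66, SE 0.16, adjusted p = 0.021), and without the 3 libraries, 2 of them HFD fast, it was no longer called (-0.78, adjusted p = 0.0549). Smpdl3b was called higher at 11 to 12 counts in CD fast and 16 to 28 counts in HFD fast libraries (adjusted p = 0.0496). In this comparison 2 of 5 sinusoidal endothelial markers, Stab2 and Pecam1, and 1 of 4 erythrocyte markers, Alas2, were called higher in HFD, with endothelial sums of 147 to 194 CPM in CD fast and 179 to 236 CPM in HFD fast livers, and their part in these changes was not tested.

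Several of these pathway counts rested on single libraries. With fasting in CD the count of 11 fell to 4 without CD fed replicate 1, to 7 without replicate 3, to 6 without replicate 4, to 5 without CD fast replicate 2 and to 6 without CD fast replicate 4, whereas Aldh3a2, Psap and Cptp were called in all 16 omissions. With HFD in fed mice the count of 4 fell to 2 without either CD fed replicate 1 or replicate 3 of HFD fed, and with fasting in HFD it rose to 7 without HFD fed replicate 4. Of the calls near the threshold with fasting in CD, Elovl1 was called in 6 of 16 omissions (adjusted p of up to 0.116), Ormdl2 in 7 (0.124), Sptlc3 in 9 (0.0898) and Kdsr in 11 (0.115). Smpdl3a with HFD in fed mice was called in 4 of 16 (adjusted p of up to 0.134) and Samd8 with fasting in HFD in 7 (0.148). Between fasted livers Smpdl3b kept its call in 2 of 16 omissions and Apom in 13, and the count of 2 fell to 0 without HFD fast replicate 3. Cers6 and Cers2 with fasting in CD, and Cers6 and Sgms1 with HFD in fed mice, were called in all 16 omissions, with adjusted p of up to 0.0318, 0.0174, 0.0346 and 0.046.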

How the data were processed

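The deposited counts, made by the authors, are whole numbers for each Ensembl gene ID, not normalized, and whether a read pair counts once is not given in the sources used here. Polyadenylated RNA was sequenced, and the submitters' processing notes name CASAVA 1.8.4, TopHat2 2.0.11, featureCounts and the GRCm38 build. The strand setting of the counting is not given in the sources used here. Of 46078 IDs, 45143 were matched to a symbol with GENCODE vM21, and positions and exon lengths are from it.

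Counts were fitted in edgeR 4.0.16 (R 4.3.3) over all 16 libraries with TMM scaling, filterByExpr and 1 coefficient per group (12 residual degrees of freedom), and tested by quasi-likelihood with Benjamini-Hochberg adjustment. Standard errors were derived from the F statistic. Ratios within a library used counts plus 0.5 and exact permutation tests. Intervals are at 95%. In simulated counts edgeR recovered 55% of 1.5-fold and 100% of 3-fold changes for fasting in CD among 14950 genes.

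Named genes were the members, pathway genes called in any contrast, and for the 2 members with the smallest F test p the 3 genes of highest correlation. Sgms2, a pathway gene with no call, was named beside Sgms1. Members and lists were chosen with earlier results of these data known. Alternatives were DESeq2 1.42.0, limma-voom (limma 3.58.1), other scalings and filters, only the groups compared, a replicate block, medians, each library left out and, added after seeing the data, 3 HFD libraries left out together. Marker lists of 9 cell types were summed. Standard errors reflect the spread between libraries, with a common coefficient of variation of 19.2% in edgeR. Reads carry no molecular identifiers.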

Additional observations from a re-analysis of the deposited data

Results flagged for a closer look

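Of 40 combinations of member and group checked for a library far from the other 3, 3 had one, and chance gives about 1 in 20. Cers2 was at 313 CPM in HFD fast replicate 2, apart from 216 to 227 CPM in the other HFD fast libraries. Degs1 was at 88.1 CPM in HFD fed replicate 4, apart from 64.0 to 66.9 CPM in the others, the same library that was high in Krt19 and Ctrb1. Smpd1 was at 44.0 CPM in HFD fed replicate 2, under 48.5 to 48.8 CPM in the others.

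The fasting change of Smpd2, a neutral sphingomyelinase, differed between diets, by -0.51 on the log2 scale (fasting in HFD minus fasting in CD, edgeR adjusted p = 0.0435), 1 call among 38 pathway genes beside 2.59% of all genes. The call was kept in 5 of 16 omissions of a library (adjusted p of up to 0.0946) and in 6 of 9 other settings, and was lost with the 3 HFD libraries that stood apart left out (-0.51, adjusted p = 0.0665). Smpd2 was at 24.3 to 27.3 CPM in CD fast and 23.3 to 30.5 CPM in HFD fast livers, so the diets differed in the fed state and overlapped in the fasted state.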

How the results depend on the processing

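The calls of Cers6 and Cers2 with fasting in CD, and of Cers6 and Sgms1 with HFD in fed mice, held in all 10 other settings and all 16 omissions of a library. The count of members called moved with fasting in HFD (0 in edgeR, 2 in DESeq2, 1 with a replicate block), HFD in fed mice (2 in edgeR, 3 with Cers2 in DESeq2, upper quartile scaling, at least 1 CPM in 4 libraries, only the groups compared and 2 omissions), HFD in fasted mice (1 with total count scaling) and the interaction (3 in DESeq2, 1 with total count scaling, 1 with a replicate block). Omissions gave 2 to 3 members for fasting in CD, 0 to 1 for fasting in HFD and 0 to 2 for the interaction. Replicate numbers were not taken to pair libraries: correlations of deviations between same-numbered libraries ran from -0.24 to 0.66 over 24 pairs, 7 of them over 0.1. With the replicate block Sgms1 was called for fasting in HFD (-0.47, adjusted p = 0.0326) and in the interaction (-0.82, adjusted p = 0.0333).

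Pathway genes called with fasting in CD were 7 with no filter and 4 to 12 over omissions. With HFD in fasted mice they were 5 with total count scaling, 0 with only the groups compared, and 1 in each of DESeq2, limma-voom, DESeq2 size factors, no filter, at least 1 CPM in 4 libraries, the replicate block and the omission of the 3 HFD libraries that stood apart (added after seeing the data). In the interaction they were 2 in DESeq2, 2 with total count scaling and 0 with no filter. Omissions gave 3 to 7 for fasting in HFD, 2 to 5 for HFD in fed mice, 0 to 3 for HFD in fasted mice and 0 to 2 for the interaction.

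Changes of sign concerned uncalled values near 0. With total count scaling Sptlc2 was at 0.03 with fasting in HFD, Smpd1 at 0.05 for HFD in fed mice, and between fasted groups Sptlc1 was at 0.14 and Degs1, Smpd1 and Sgms1 each at 0.05. With upper quartile scaling Sptlc2 and Smpd1 were at 0.01 in the same comparisons and Sptlc1 at 0.02. Without the 3 HFD libraries that stood apart Degs1 was at -0.07, Cers5 at -0.03 and Sptlc2 at -0.02 for HFD in fed mice. Omissions spanned -0.02 to 0.20 for Cers5 with fasting in CD. With fasting in HFD they spanned -0.08 to 0.03 for Sptlc2, -0.12 to 0.08 for Cers2, -0.34 to 0.06 for Cers6, -0.21 to 0.04 for Degs1 and -0.09 to 0.08 for Asah1. With HFD in fed mice they spanned -0.03 to 0.05 for Sptlc2, -0.04 to 0.09 for Cers5, -0.08 to 0.14 for Degs1 and -0.03 to 0.02 for Smpd1. With HFD in fasted mice they spanned -0.08 to 0.03 for Sptlc1 and -0.05 to 0.31 for Cers6. Among ratios, a difference of medians gave -0.29 for Cers6 to Cers2 and 0.07 for Smpd1 to Sgms1 with HFD in fasted mice. Omissions spanned -0.36 to 0.08 for Cers6 to Cers2 with fasting in HFD, -0.26 to 0.20 with HFD in fasted mice, -0.09 to 0.01 for Sptlc2 to Sptlc1 with fasting in CD and -0.08 to 0.11 for Smpd1 to Sgms1 with HFD in fasted mice. The cause was not tested. Low counts limited Sptlc3 and Smpdl3b, and gene counts do not separate isoforms or show enzyme activity or ceramide levels.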
